A study of Mus musculus with 8 samples.

Results

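Chromatin accessibility was examined at 10 genes encoding transcription factors that run the pachytene and spermatid programs of the male germ line: *Mybl1*, *Rfx1*, *Rfx2*, *Rfx3*, *Rfx4*, *Crem*, *Tcfl5*, *Sox30*, *Zfp541* and *Ovol1*. The 10 were listed by name as known regulators, by a rule that uses no measured value, out of 21938 protein-coding genes on chromosomes 1 to 19, X and Y. A peak belonged to a gene when it shared at least 1 bp with the gene body or with the 5000 bp upstream of it (GENCODE vM21, mm10 mouse genome). ATAC-seq, in which a transposase cuts accessible DNA and leaves sequencing adapters in it, was run in 4 libraries from each of 2 genotypes of pachytene spermatocytes, *Arid1a* WT and *Arid1a* cKO. *Arid1a* encodes a subunit of the BAF chromatin remodeling complex. The cKO males were *Arid1a* fl/fl with 1 copy of a *Stra8-Cre* transgene, which is active in spermatogonia, and the WT males were fl/fl or fl/+ without Cre. The floxed line was kept on a CD1 background, and adult testes of several males were pooled before the cells were separated by sedimentation (Sta-Put) and frozen. Excision was incomplete, so the cKO libraries held cells with and without ARID1A, and a change due to genotype cannot be told apart from a change in the mix of stages in each fraction. In such bulk libraries, more cells with an open site and a more open site per cell cannot be told apart either.

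Pachytene spermatocytes switch on a large set of genes whose products are needed in meiosis and, later, in spermatids. A-MYB, the product of *Mybl1*, is a master activator of this switch and of piRNA precursor genes, and *Rfx2*, which drives genes for cilia and flagella, is a known gene downstream of it. CREM and SOX30 act on the genes of round spermatids, TCFL5 is needed in spermatocytes and spermatids, ZFP541 works with a histone deacetylase complex at the end of pachynema, and OVOL1 is a repressor that spermatocytes need to pass through pachynema.

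Each of the 10 genes had an accessible promoter in both genotypes, but not at every start. The sequences that show this best are the 250 bases before 6 annotated transcription starts, given 5′ to 3′ on the strand of the gene. They were read from RefSeq promoter windows of GRCm38.p6, the assembly of mm10, or, for the upstream *Zfp541* start, from the genome of that assembly. Capitals mark letters searched on both strands, namely the MYB motif TAACNG, the RFX box core GTTGCC, the CRE core TGACG and the SOX motif ACAATNG. *Rfx2* and *Sox30* are shown as examples of strong promoter peaks, and *Rfx4* and *Zfp541* for a start without a peak beside a start with one. *Rfx3* and *Crem* had higher WT folds than *Rfx2* and *Sox30*. The *Rfx3* window held no MYB letters, and *Crem* had no RefSeq window.
Rfx2, chr17:56831009-56831258, minus strand, inside a peak: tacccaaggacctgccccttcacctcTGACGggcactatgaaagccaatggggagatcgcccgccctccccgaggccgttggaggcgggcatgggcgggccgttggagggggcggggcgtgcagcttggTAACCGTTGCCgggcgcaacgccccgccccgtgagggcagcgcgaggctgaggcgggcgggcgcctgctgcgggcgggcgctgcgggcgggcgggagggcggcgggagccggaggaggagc
Sox30, chr11:45980060-45980309, plus strand, inside a peak: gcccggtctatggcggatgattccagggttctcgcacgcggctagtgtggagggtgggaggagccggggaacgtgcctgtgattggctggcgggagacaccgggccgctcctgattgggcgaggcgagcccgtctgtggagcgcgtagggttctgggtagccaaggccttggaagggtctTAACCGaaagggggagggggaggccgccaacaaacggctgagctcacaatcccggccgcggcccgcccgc
Rfx4, 5′-most start, chr10:84755798-84756047, plus strand, no peak: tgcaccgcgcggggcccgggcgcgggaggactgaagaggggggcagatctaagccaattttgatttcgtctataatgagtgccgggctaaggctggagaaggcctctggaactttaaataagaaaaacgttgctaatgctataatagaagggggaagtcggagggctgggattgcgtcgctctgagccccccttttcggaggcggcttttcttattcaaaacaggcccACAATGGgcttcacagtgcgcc
Rfx4, internal start, chr10:84837898-84838147, plus strand, inside a peak: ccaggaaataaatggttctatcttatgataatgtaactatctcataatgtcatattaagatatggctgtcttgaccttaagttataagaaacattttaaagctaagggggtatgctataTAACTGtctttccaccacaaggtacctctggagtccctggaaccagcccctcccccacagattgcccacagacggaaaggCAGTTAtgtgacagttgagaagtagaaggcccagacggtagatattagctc
Zfp541, 5′-most start, chr7:16061564-16061813, plus strand, inside a peak: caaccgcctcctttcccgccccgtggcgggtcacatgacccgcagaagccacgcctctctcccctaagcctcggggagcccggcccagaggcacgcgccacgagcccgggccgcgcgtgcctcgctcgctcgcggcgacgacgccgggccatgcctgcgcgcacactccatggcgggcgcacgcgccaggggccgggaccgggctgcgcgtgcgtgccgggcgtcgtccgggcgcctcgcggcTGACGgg
Zfp541, downstream start, chr7:16071595-16071844, plus strand, no peak: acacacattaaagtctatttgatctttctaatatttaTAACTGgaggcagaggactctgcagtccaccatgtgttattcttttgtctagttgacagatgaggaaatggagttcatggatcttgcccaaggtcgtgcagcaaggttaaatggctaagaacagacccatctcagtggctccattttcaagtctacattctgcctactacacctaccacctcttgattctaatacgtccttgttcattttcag

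In the *Rfx2* stretch the MYB letters TAACCG, at bases 130 to 135 counted from the first base printed, ran into the RFX letters GTTGCC at bases 135 to 140, the 2 matches sharing 1 base. *Sox30* held TAACCG at bases 181 to 186. The internal *Rfx4* start, whose stretch had 42.0% GC and 2 CpG dinucleotides, held the MYB letters at bases 120 to 125 and, on the other strand, at bases 200 to 205. By contrast, the 5′-most *Rfx4* stretch (54.8% GC, 15 CpG) held no MYB letters and had no peak in either list. At *Zfp541* the order was the other way round. The 5′-most stretch, with 78.4% GC and 42 CpG, lay inside a peak, whereas the downstream stretch, with 41.2% GC and 2 CpG, had none and held TAACTG at bases 38 to 43. The downstream stretch ends just before the RefSeq start, upstream of the GENCODE starts at positions 16071921 and 16071942. Whether transcription begins at any of these starts was not tested, so the stretch may not be a promoter.

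Over the full RefSeq windows of 300 bases (250 before to 50 after the start), 7 of the 10 genes were matched, with 8 windows. MYB letters lay in 5 of the 8 windows (*Tcfl5*, *Zfp541*, *Sox30*, *Rfx2* and internal *Rfx4*), against 23.3% of all 32851 windows. GTTGCC lay in 3 (*Rfx1*, *Rfx2* and *Rfx3*), against 12.5% of all windows, and so did TGACG (*Rfx1*, *Rfx2* and 5′-most *Rfx4*), against 20.8%. The SOX letters lay in 1 window (8.09% of all), the OVOL letters CCGTTA in 1 (2.76%; the same bases of *Tcfl5* as its MYB match on the other strand) and the E-box CACGTG in 0 (7.15%). A match of so few letters is a description of the sequence and not a binding site.

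Each genotype was represented by 1 peak list, in which peaks of a reference library were kept where they overlapped peaks of other replicates. No per-library values were analysed, so the spread between replicates is unknown and no difference below was tested. The fold enrichment of a peak divides the fragments piled up at its summit by a library-wide background, after 1 is added to each. That background came to 4.33 (WT) and 5.11 (cKO) fragments per base. The WT list held 19309 peaks and the cKO list 30244. Lost peaks were WT peaks without a base in common with any cKO peak (918, or 4.75%), and gained peaks were cKO peaks without a base in common with any WT peak (13144, or 43.5%). Promoter folds were higher in the cKO list for 97.9% of the 10561 genes with a promoter peak in both lists, with a median cKO to WT ratio of 1.57 and quartiles of 1.38 and 1.74. The 10 regulators are therefore read against this shift of the whole list. Over all protein-coding genes, promoter peaks lay at 48.4% in the WT list, 55.3% in the cKO list and 48.1% in both. Promoter peaks lay at 6 of 6 germ cell and pachytene marker genes in both lists. At markers of Sertoli cells, Leydig cells, spermatogonia, spermatids, leukocytes and endothelium, they lay at 1 of 16 genes in the WT list (*Star*, fold 3.75) and at 6 of 16 in the cKO list, with folds of 3.11 to 4.75. Their part in the values below was not tested.

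The promoter window ran between 1000 bp before and 100 bp after the start of any protein-coding transcript. A WT peak lay in it at 10 of 10 regulators, against 48.4% of all genes, and a cKO peak at 10 of 10, against 55.3%. Both held at 10 of 10, against 48.1%. Counting only peaks whose centre lay in the window, 7 regulators had a WT promoter peak and 6 a cKO one. The share of all genes under that rule was not computed. The WT list held 20 peaks at these genes and the cKO list 30. Promoter peaks numbered 12 in each list, and all were common to both. The remaining WT peaks were 6 within genes and 2 upstream, and the remaining cKO peaks were 17 within genes and 1 upstream. Of the 30 cKO peaks, 13 were gained, beside 43.5% of the whole cKO list, and of the 20 WT peaks, 2 were lost, beside 4.75% of the whole WT list. Promoter peaks had a median fold of 12.5 in WT and 20.1 in cKO, and peaks within genes had medians of 3.19 and 3.44. The maps of the 10 genes show this contrast between tall peaks at the starts and low ones in the bodies.

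**Figure D1:**
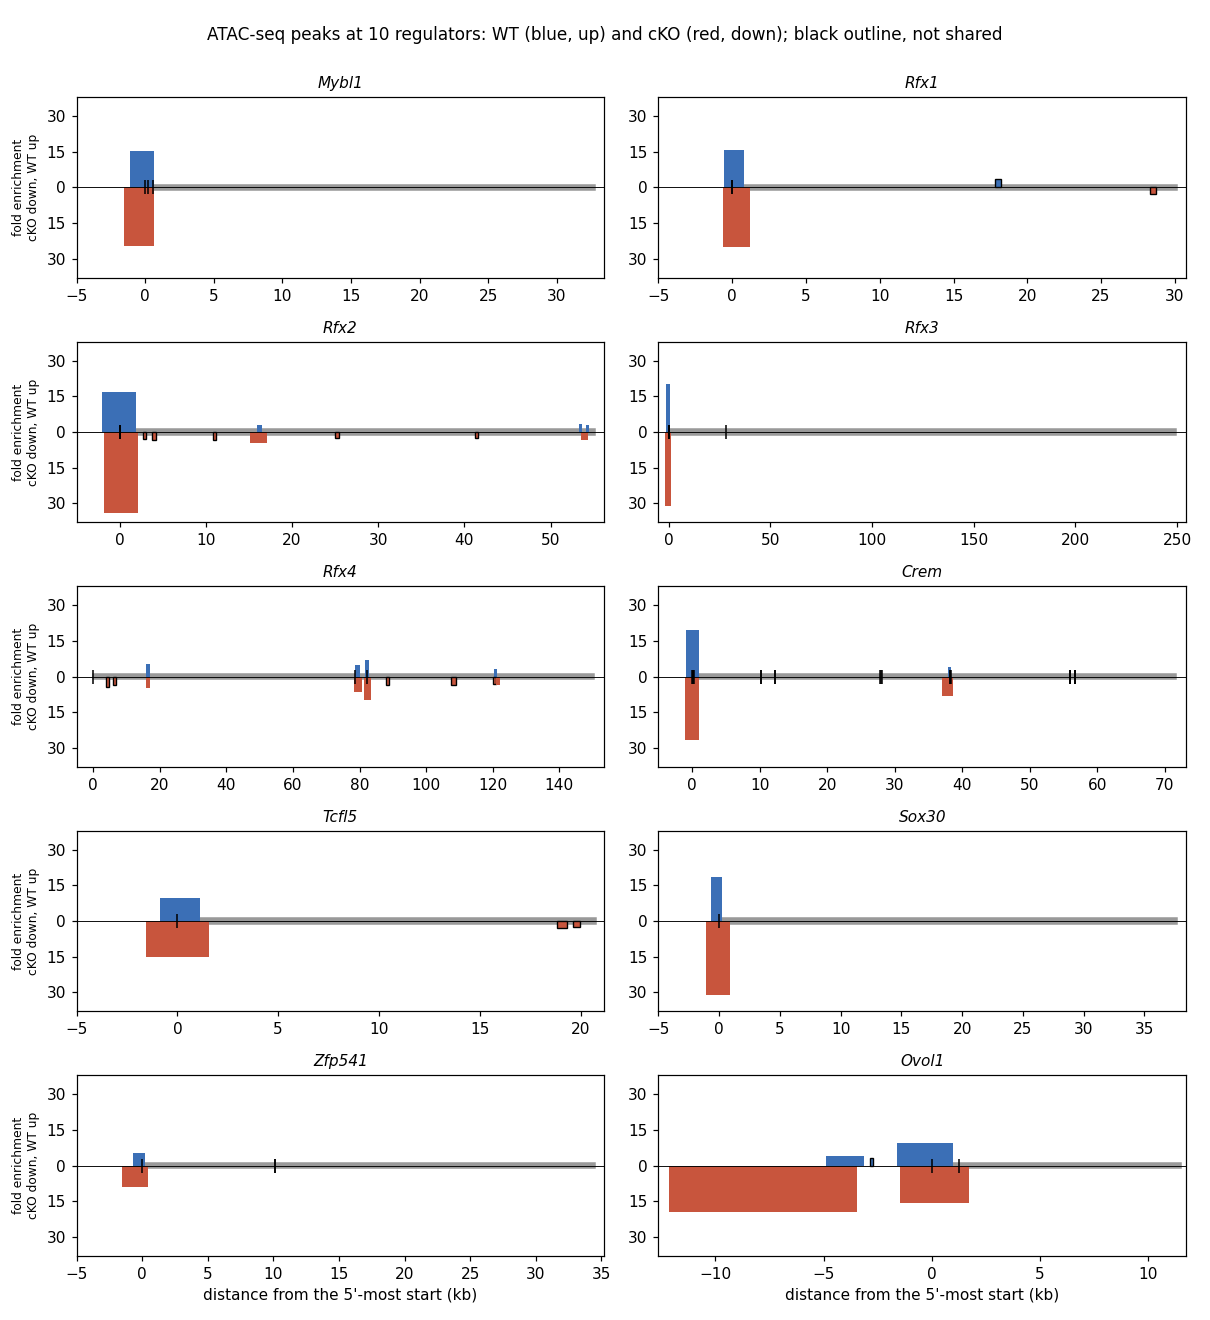
Peaks at each regulator, by distance from the 5′-most protein-coding start in kb along the direction of transcription. WT peaks (blue) rise and cKO peaks (red) hang from the line by their fold enrichment, black outlines mark lost or gained peaks, black ticks mark starts of protein-coding transcripts, the grey bar is the gene body, and the narrowest peaks were widened to stay visible. *Rfx2* and *Rfx4* carry 5 gained peaks each, *Tcfl5* 2 and *Rfx1* 1, and the cKO peak upstream of *Ovol1* spans 8685 bp.

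The A-MYB gene and its known downstream gene *Rfx2* had cKO to WT promoter ratios of 1.61 and 2.03, with overlapping counting intervals (1.19 to 2.08 and 1.54 to 2.58 on the scaled counts). *Mybl1* (chr1:9667415-9700209, minus strand) had 1 peak in each list, over all 3 of its annotated starts, and nothing else in its 32795 bp. That peak spanned chr1:9699600-9701297 in the WT list, with a fold of 15.4 (81 fragments at the summit), and chr1:9699541-9701783 in the cKO list, with a fold of 24.7 (150 fragments). The ratio of 1.61 stood at the 56.3rd percentile of all genes with a promoter peak in both lists, close to their median. *Mybl1* thus had a strong promoter peak in the WT list (88.0th percentile of fold), and its ratio was near that of the list.

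*Rfx2* (chr17:56775897-56831013, minus strand) had the highest cKO fold and the highest ratio of the 10. Its promoter peak had a fold of 16.7 (88 fragments) in WT and 33.9 (206 fragments) in cKO, a ratio of 2.03. That ratio stood at the 93.9th percentile of genes with a promoter peak in both lists. Scaled by the background of each list, the summit counts gave a ratio of 1.98 with a 95% interval of 1.54 to 2.58, which covers counting error only. The median of genes with a promoter peak in both lists was 1.54 on that scale, at the lower end of the interval. The peak was the one promoter peak of the 10 that was not wider in the cKO list, spanning 3979 bp in the WT list (chr17:56829111-56833089) and 3932 bp in the cKO list (chr17:56828878-56832809). It contains the TAACCG and GTTGCC letters printed above.

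Within the *Rfx2* body the cKO list had 7 peaks and the WT list 3. Of the 7 cKO peaks, 5 were gained, and all of these lay in introns. The 3 nearest to the start were in intron 1, at chr17:56828090-56828267 (fold 3.11), chr17:56826796-56827237 (3.44) and chr17:56819846-56820177 (3.27). Farther in, 1 peak lay in intron 2 (chr17:56805556-56806081) and 1 in intron 5 (chr17:56789507-56789730), both with a fold of 2.62. Of the 5, 4 filled a single segment of the list, taken to mean that they overlapped a peak of another replicate once. The common peak in intron 1 had 546 bp and a fold of 3.0 in the WT list (chr17:56814494-56815039), against 1886 bp and a fold of 4.58 in the cKO list (chr17:56813952-56815837). Near the end of the gene, WT peaks of 17 bp (chr17:56776704-56776720, fold 2.81) and 183 bp (chr17:56777420-56777602, fold 3.19) were both touched by 1 cKO peak of 803 bp (chr17:56776637-56777439, fold 3.44).

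The other RFX genes ranged from single strong promoter peaks to the most divided gene of the 10. *Rfx1*, broadly expressed, had a promoter fold of 15.9 (84 fragments) in WT and 24.9 (151 fragments) in cKO, a ratio of 1.56. The interval was chr8:84066251-84067648 in WT and chr8:84066203-84068067 in cKO. Its promoter peak also covered the start of the neighbour *C330011M18Rik*, so the value cannot be assigned to *Rfx1* alone. *Rfx3*, known for its role in ciliogenesis, had the highest WT fold of the 10, 20.1 (106 fragments), and a cKO fold of 31.3 (190 fragments). Its ratio was 1.56, like that of *Rfx1*. *Rfx3* covers 249446 bp, the longest of the 10 genes, yet its promoter peak (chr19:28010398-28012629 in WT, chr19:28009973-28013029 in cKO) was its sole peak in either list, and the start 28218 bp downstream had none.

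*Rfx1* (chr8:84066834-84096992, plus strand) also had 1 lost and 1 gained peak, both low. A lost WT peak of 426 bp lay in intron 7 (chr8:84084625-84085050, fold 3.75), and a gained cKO peak of 462 bp lay in intron 18 (chr8:84095114-84095575, fold 2.95). Both folds were near the medians of the unshared peaks of their lists, 3.38 for lost and 3.44 for gained.

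*Rfx4* (chr10:84756062-84906538, plus strand), known for separate brain and testis transcripts, had peaks at or just inside its internal starts and none at its 5′-most start. No peak of either list covered the promoter of the start at position 84756062 on chromosome 10. A WT promoter peak with none at the 5′-most start was found for 1 of 10 regulators, beside 7.71% of 10613 genes. Where starts lie 5000 bp or more apart, it was found for 1 of 4 regulators, beside 17.9% of 2920 genes. The start 78684 bp downstream had a peak with a fold of 4.88 in WT and 6.38 in cKO. Its peak spanned chr10:84834751-84836332 in WT and chr10:84834455-84836904 in cKO. The WT peak began downstream of that start, at position 84834746, and was counted only through the 100 bp after it. The strongest, 82086 bp downstream, had folds of 6.94 (36 fragments) and 9.98 (60 fragments), at chr10:84837633-84838885 and chr10:84837311-84839423. Its ratio was 1.44, and the scaled ratio of 1.41 had an interval of 0.919 to 2.20 that included 1, the one such interval among the 10 genes.

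*Rfx4* also had 5 gained peaks, as many as *Rfx2*. They lay in introns 1, 8, 11 and 13, with folds of 3.11 to 4.25. The widest, with 1683 bp and a fold of 3.44 (chr10:84863475-84865157), filled 4 segments. The others were chr10:84762169-84762593 and chr10:84843989-84844777, both with a fold of 3.44, and chr10:84876268-84876639, with 3.11. The gained peak nearest to the 5′-most start (chr10:84759827-84760713, fold 4.25) had the highest −log10 q of all 13 gained peaks, 8.07. By contrast, the common intron 1 peak at chr10:84772077-84772913 was the one pair whose fold was lower in the cKO list, 4.91 against 5.07 (scaled ratio 0.945, interval 0.537 to 1.67). In intron 13, a WT peak of 207 bp (chr10:84876872-84877078, fold 3.19) overlapped a cKO peak of 1373 bp (chr10:84876993-84878365, fold 3.44). The stretch of *Rfx4* inside peaks was 3879 bp in WT and 11153 bp in cKO.

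*Crem*, *Tcfl5* and *Sox30*, regulators of the spermatid program, had strong or middling promoter peaks. The highest ratio among their common peaks was at an internal *Crem* start. CREM activator and repressor forms are made from alternative promoters and splicing. The 5′ promoter of *Crem* (chr18:3336710-3338638 in WT, chr18:3336691-3338782 in cKO) had a fold of 19.7 (104 fragments), and in the cKO list 26.8 (163 fragments). Its ratio of 1.36 was the lowest of the 10, at the 22.5th percentile of genes with a promoter peak in both lists. This peak also covered the start of *Gm6225*.

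The internal *Crem* peak was weaker than the 5′ one and had a higher ratio, within counting error. It lay 37838 to 38280 bp downstream of the 5′-most start in WT and 37003 to 38637 bp downstream in cKO. The starts of Crem-204, Crem-207 and Crem-209 lay 38189 to 38296 bp downstream. The peak was in their promoter windows, but in WT it stopped short of the Crem-207 start. In the WT list it spanned 443 bp (chr18:3299468-3299910) with a fold of 4.13 (21 fragments), and in the cKO list 1635 bp (chr18:3299111-3300745) with a fold of 8.35 (50 fragments). The ratio of 2.02 stood at the 90.9th percentile of all 18391 common peaks, whose median was 1.48. The scaled ratio of 2.02 had an interval of 1.19 to 3.54, against 1.03 to 1.72 at the 5′ promoter, and the intervals overlapped. No peak of either list covered the other clusters of *Crem* starts, which lie between 10157 and 56670 bp downstream.

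*Tcfl5*, a testis basic helix-loop-helix factor, had a promoter fold of 9.57 (50 fragments) in WT and 15.2 (92 fragments) in cKO, a ratio of 1.59. The peak spanned 1990 bp in WT (chr2:180641581-180643570) and 3114 bp in cKO (chr2:180641144-180644257). The 2 gained peaks of *Tcfl5* were neighbours in intron 5 (chr2:180622740-180623101, fold 2.62, and chr2:180623411-180623889, fold 3.11), and each filled a single segment.

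*Sox30*, an HMG-box factor required in round spermatids, had 1 peak in each list. Its fold was 18.6 (98 fragments) in WT and 31.3 (190 fragments) in cKO, a ratio of 1.68 at the 66.9th percentile. The widths stood farther apart than the heights. The peak spanned 865 bp in the WT list (chr11:45979664-45980528), the narrowest of the 10 strongest promoter peaks, and 1985 bp in the cKO list (chr11:45979252-45981236). The width ratio was 2.29, against a median of 1.44 over genes with a promoter peak in both lists.

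*Zfp541* had the lowest promoter fold of the 10 in both lists, 5.25 (27 fragments) in WT and 9.16 (55 fragments) in cKO. Those values stood at the 20.3rd and 26.6th percentiles of genes with a promoter peak in both lists. The ratio of 1.74 was the second highest of the 10, after *Rfx2*, but 27 fragments left the scaled ratio of 1.73 with an interval of 1.07 to 2.85. The peak lay at the 5′-most start (chr7:16061134-16062043 in the WT list, chr7:16060262-16062263 in the cKO list), and its width ratio was 2.20. The starts 10107 and 10128 bp downstream, both just downstream of the *Zfp541* start in RefSeq, had no peak in either list. Among 8418 genes with a WT promoter peak and a RefSeq promoter window, 5.33% had no WT peak in any such window, as did 1 of the 7 regulators with a window, *Zfp541*.

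*Ovol1* (chr19:5549136-5560646, minus strand) had a promoter fold of 9.57 (50 fragments) in WT and 15.5 (94 fragments) in cKO, a ratio of 1.62. That peak (chr19:5559671-5562256 in WT, chr19:5558953-5562103 in cKO) also covered the start of *AC126029.1*. Upstream of it stood the widest peak of the 30 cKO peaks, 8685 bp (chr19:5564088-5572772) with a fold of 19.5. The WT peak nearest to *Ovol1* that it overlapped had 1768 bp and a fold of 4.13 (chr19:5563775-5565542). That cKO peak spanned 3 WT peaks, however, the strongest of which had 4391 bp and a fold of 10.9, and it covered all of *Ap5b1* (chr19:5568025-5571261) and its start. The ratio of 4.72 between the cKO peak and the near WT peak therefore sets a merged region against 1 part of it. A lost WT peak of 9 bp with a fold of 3.19 (chr19:5563427-5563435) lay between this region and the promoter.

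Ranked by WT fold, the promoters ran *Rfx3*, *Crem*, *Sox30*, *Rfx2*, *Rfx1*, *Mybl1*, *Tcfl5* with *Ovol1* at the same value, *Rfx4* and *Zfp541*. The highest was 3.82 times the lowest in WT and 3.70 times in cKO. The first 6 stood at or above the 88.0th percentile of WT folds, and the plot of levels and ratios shows them apart from the other 4. Across the 10 genes the median ratio was 1.60, with quartiles of 1.56 and 1.67, against the 1.57 of genes with a promoter peak in both lists. A cKO fold at least 1.5 times the WT fold was found for 8 of 10, *Rfx4* and *Crem* being the exceptions, against 59.5% of those genes. A WT fold at least 1.5 times the cKO fold was found for 0 of 10, against 0.0189%. The counting interval of the scaled ratio lay above 1 for 9 of the 10. It held 1.54, the median of genes with a promoter peak in both lists, for 9, with *Rfx2* at its edge. The share of those genes with such intervals was not computed, and 97.9% of them had a fold ratio over 1. At this depth, a departure of single regulators from the list as a whole was mostly not detectable.

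**Figure D2:**
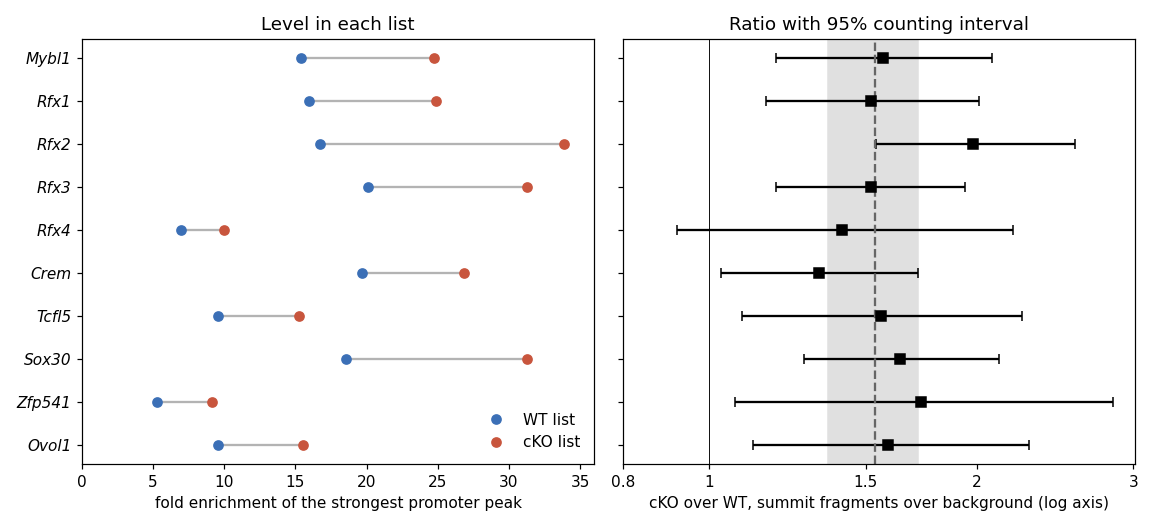
Left, fold enrichment of the strongest promoter peak of each regulator in the WT list (blue) and the cKO list (red). Right, the cKO to WT ratio of summit fragments scaled by the background of each list, on a log axis, with 95% counting intervals. The dashed line is the median of genes with a promoter peak in both lists (1.54). Their quartiles (1.36 to 1.72) form the grey band, and the thin line is a ratio of 1. *Rfx2* lies farthest right, and the *Rfx4* interval crosses 1.

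The cKO promoter peak was wider than the WT one at 9 of 10 regulators, against 95.3% of genes with a promoter peak in both lists. The median width at the regulators went from 1813 to 2178 bp, a median ratio of 1.35 against 1.44. In the histogram of promoter ratios, the 10 genes fell between 1.36 and 2.03. The distribution over all genes with a promoter peak in both lists ran from 0.589 to 10.2.

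**Figure D3:**
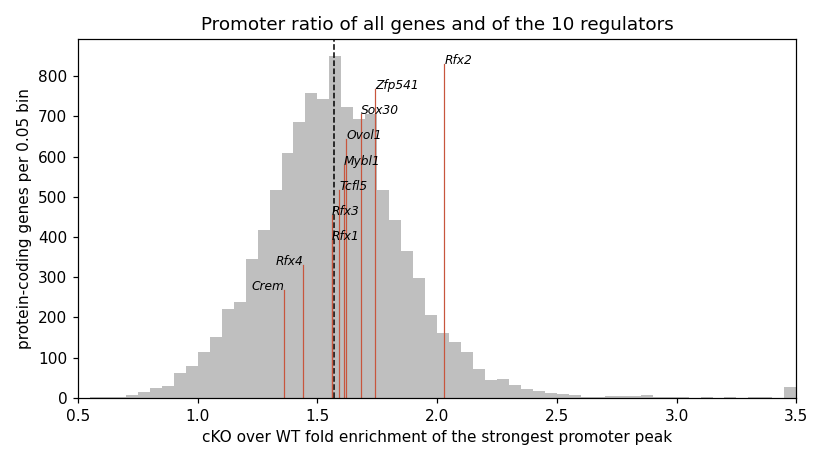
Histogram of the cKO to WT ratio of promoter fold enrichment over 10561 protein-coding genes (grey), with the 10 regulators as red lines whose heights only separate the names. The dashed line is the median of these 10561 genes (1.57), and the last bar holds all higher ratios. Of the regulators, *Crem* is lowest at 1.36 and *Rfx2* highest at 2.03.

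Gained peaks lay at 4 of 10 regulators (*Rfx1*, *Rfx2*, *Rfx4* and *Tcfl5*), against 26.8% of all genes and 29.3% of genes with a WT promoter peak. Longer genes offer more room for a peak. Among genes of 50000 bp or more with a WT promoter peak, 37.6% had a gained peak, as did 2 of the 4 regulators of that length. For shorter genes the share was 26.3%, as against 2 of 6 regulators. Having 5 or more gained peaks was less common. *Rfx2* and *Rfx4* did, 2 of 10, against 1.10% of genes with a WT promoter peak and 2.75% of the long ones. Lost peaks lay at 2 of 10 regulators (*Rfx1* and *Ovol1*), against 2.51% of all genes. The share among genes with a WT promoter peak was not computed. The *Ovol1* peak had 9 bp in 1 segment of the list, and the *Rfx1* peak filled 2 segments. With 3 or more segments required, 0 lost peaks were left.

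The 13 gained peaks were low and narrow. All lay in introns, with folds of 2.62 to 4.25 that stood between the 2.96th and 43.6th percentiles of the cKO list. Their median fold was 3.11, and that of all gained peaks of the list was 3.44. The share of all gained peaks that lay in introns was not computed. The −log10 q values of the 13 ran from 2.14 to 8.07, and 1 of the 13 reached 5. Their widths ran from 178 to 1683 bp with a median of 442 bp, and 6 filled a single segment, 3 filled 2 segments, and 4 filled 3 or more. When the cKO list was cut to the length of the WT list by −log10 q, 1 gained peak was left at 1 regulator, and 9.72% of all genes had one. By contrast, all 12 promoter peaks of each list filled 3 segments or more, beside 74.5% of all WT peaks and 80.2% of all cKO peaks. In the plot of width against fold, the gained peaks sit at the lower edge, away from the promoter peaks.

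**Figure D4:**
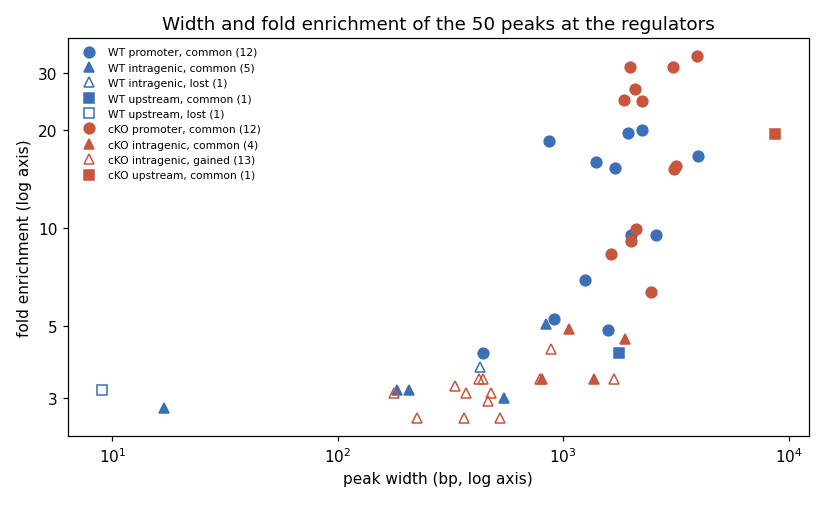
Width (bp, log axis) against fold enrichment (log axis) of the 50 peaks at the regulators, by list (WT blue, cKO red), place (circles promoter, triangles within genes, squares upstream) and status (open symbols lost or gained). The 13 gained peaks lie below a fold of 5 and the promoter peaks reach 20.1 in WT and 33.9 in cKO.

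The same counts were taken for relatives and partners of these factors. The 11 relatives were of the MYB, RFX, CREB/ATF and OVOL families, with *Elmsan1*. Promoter peaks lay at 8 of them in WT, beside 48.4% of all genes, and at 9 in cKO, beside 55.3%. The addition was *Myb*, a regulator of progenitor cells, whose cKO promoter fold was 3.11. Gained peaks lay at 3 of the 11 (*Myb* and *Rfx5* with 2 each, *Creb1* with 1), beside 26.8% of all genes, and the median promoter ratio was 1.64, from 1.31 to 1.80 over 8 genes. Of 15 partners and other germline regulators, 13 had a promoter peak in both lists, beside 48.1% of all genes. Their median ratio was 1.57, from 1.14 to 1.90. Gained peaks lay at 3 of the 15, beside the same 26.8%. *Kctd19*, the partner of ZFP541, had 5, and 1.10% of genes with a WT promoter peak had 5 or more. The folds of these 5 peaks were not examined, and the share was not recomputed under stricter cutoffs. *Hsf5* had 2. *Stra8*, whose promoter drives the Cre transgene, had 1, which lay outside its promoter window, and it had no promoter peak in either list. Lost peaks lay at 0 of the 11 and 0 of the 15, beside 2.51% of all genes.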

How the data were processed

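ATAC-seq of 4 *Arid1a* WT and 4 *Arid1a* cKO libraries was processed by the authors with Trim Galore, bowtie2 (mm10), Picard duplicate removal and samtools. MACS2 called peaks in each library without a local background, and the authors intersected replicate peaks into 1 deposited list per genotype. As deposited, fold enrichment is the linear ratio of summit pileup to background. Also from the authors are the −log10 p and −log10 q of that ratio. Which library was the reference was not given in the sources used here. Segments with 1 peak name were collapsed to their span. The background was found from the regular spacing of fold values, and every peak then had a whole pileup within 0.05. Intervals are exact binomial intervals of the 2 summit counts at 95%, divided by the backgrounds, and cover counting error only. Depth of other libraries is unknown. No test was run, since each genotype is 1 list. The text names all 10 regulators, neighbours sharing a promoter peak, and listed relatives or partners with gained peaks or a promoter peak in 1 list. The rule for the 10 uses no measured value, but these genes and lists were chosen with earlier results of these data known. Scripts (python 3.11.15, numpy 2.4.6, pandas 2.3.3, scipy 1.17.1) were checked on simulated peaks. The summit offset was not used.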

Additional observations from a re-analysis of the deposited data

How the results depend on the processing

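Of 87 recomputed values under 14 alternative settings, 59 stayed close to the reported ones, 28 moved and 0 reversed. A count was called close within a factor of 1.5 of the reported one, and the share of all genes within its 95% binomial interval. The median promoter ratio was called close within the median counting interval of the 10 regulators. Only this ratio could reverse, by falling below 1. Peak counts at the regulators rested mostly on low peaks. With −log10 q of at least 5, the cKO peaks numbered 16, the gained peaks 1, the lost peaks 1, the regulators with a gained peak 1 and the share of all genes with one 14.2%. With −log10 q of at least 10 there were 11 WT peaks, 11 common WT peaks, 14 cKO peaks, 0 lost peaks, 0 gained peaks and 0 regulators with a gained peak, and the share of all genes was 4.58%. Keeping peaks on 3 or more segments left 4 gained and 0 lost peaks and a share of 18.1%. Cutting the cKO list to the length of the WT list by −log10 q left 16 cKO peaks, 1 gained peak at 1 regulator, 5 lost peaks and a share of 9.72%. Requiring 50% overlap gave 19 gained peaks, within the factor of 1.5, as well as 4 lost peaks, 7 regulators with a gained peak and 35.3%. The gene body alone gave 1 lost peak and 23.1%, and a longer upstream reach 29.8%. Counting a promoter peak only by its centre left 7 regulators with a WT promoter peak and 6 with a cKO one, from 10 each. No share of all genes was computed under that rule. The median promoter ratio was 2.24 on the −log10 p scale, which is not linear in fold. No paired analysis was possible because the values analysed here are 1 list per genotype, with no values per library. For the same reason no library was left out, and a difference between the lists cannot be told apart from one between their reference libraries. Among the strongest promoter peaks, the counting intervals were widest at *Zfp541* and *Rfx4*, and weaker peaks such as the internal *Crem* one had wider intervals.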
